A study of Homo sapiens with 18 samples.

Results

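The genes described here are the transcriptional feedback genes of the RAS-ERK (MAPK) pathway: the Sprouty genes SPRY1, SPRY2 and SPRY4, the Sprouty-related genes SPRED1 and SPRED2, the phosphatase genes DUSP4, DUSP5 and DUSP6, and the transcription factor genes ETV4 and ETV5. They were taken by gene symbol from a table of read counts for 18670 genes, in which all 10 were found. RNA was sequenced from 18 libraries of the human acute myeloid leukemia lines U937 and THP-1, in 6 groups of 3. The first group was U937 cells carrying a lentiviral knockdown of S100A9 (shS100A9), set against U937 cells with an empty vector. THP-1 cells carried either lentiviral overexpression of S100A9 (OES100A9) or an empty vector, and each of these was also treated with Adavivint at 1 µM for 36 h, giving the groups OES100A9 with Adavivint, OES100A9 untreated, empty vector with Adavivint and empty vector untreated. S100A9 is a calcium-binding protein of myeloid cells, and Adavivint is a small molecule known as an inhibitor of CLK and DYRK kinases and of Wnt signalling. All groups were transduced and selected with puromycin at 2 µg/mL. The number of hairpins, whether cells were cloned, and the vehicle of the untreated cells are not stated in the labels.

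In the RAS-ERK pathway, activated receptors load RAS with GTP, and RAF, MEK and ERK kinases act in sequence. Active ERK induces genes whose products damp the same pathway. Sprouty proteins act between receptors and RAS, SPRED proteins bring the RAS GTPase-activating protein neurofibromin (encoded by NF1) to the membrane, and the DUSP proteins remove phosphate from ERK, DUSP6 in the cytoplasm and DUSP4 and DUSP5 in the nucleus. ETV4 and ETV5 are ETS-family transcription factors that are induced when ERK relieves repression by the repressor Capicua (CIC). The RNA level of this set, DUSP6 above all, is widely used as a readout of ERK output. RAS-pathway lesions are frequent in myeloid leukemia, and THP-1 cells are known to carry an activating NRAS mutation. ERK phosphorylation was not measured in these libraries.

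Promoter sequences were compared because most members moved together under the drug. RefSeq windows on GRCh38.p14, from 250 bases before to 50 bases after an annotated start, were matched by symbol for 6 of the 10 members and gave 10 windows; DUSP4, DUSP5, ETV4 and ETV5 were not in the table used. The windows of DUSP6 (the member with the largest drug effect, chr12:89352452-89352751, minus strand), SPRY4 (the member whose drug effect changed direction with the vector, chr5:142324198-142324497, minus strand), SPRED1 (the member nearly lost in the knockdown, chr15:38252586-38252885, plus strand) and SPRED2 (the window with AP-1 matches, chr2:65366729-65367028, minus strand) are given 5′ to 3′ on the gene's strand. Capitals mark GGAA or its reverse complement TTCC, the core of ETS-factor sites.
DUSP6: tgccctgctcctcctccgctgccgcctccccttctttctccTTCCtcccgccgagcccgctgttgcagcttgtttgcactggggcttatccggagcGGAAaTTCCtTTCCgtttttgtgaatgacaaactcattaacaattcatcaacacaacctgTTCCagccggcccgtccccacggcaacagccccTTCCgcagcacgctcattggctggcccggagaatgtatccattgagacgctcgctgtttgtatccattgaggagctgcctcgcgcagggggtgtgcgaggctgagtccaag
SPRY4: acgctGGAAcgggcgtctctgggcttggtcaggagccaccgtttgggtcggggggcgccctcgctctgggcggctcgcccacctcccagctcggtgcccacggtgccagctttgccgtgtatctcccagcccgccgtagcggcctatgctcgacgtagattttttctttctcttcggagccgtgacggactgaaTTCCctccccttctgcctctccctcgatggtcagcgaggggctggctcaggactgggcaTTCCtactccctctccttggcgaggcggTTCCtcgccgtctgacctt
SPRED1: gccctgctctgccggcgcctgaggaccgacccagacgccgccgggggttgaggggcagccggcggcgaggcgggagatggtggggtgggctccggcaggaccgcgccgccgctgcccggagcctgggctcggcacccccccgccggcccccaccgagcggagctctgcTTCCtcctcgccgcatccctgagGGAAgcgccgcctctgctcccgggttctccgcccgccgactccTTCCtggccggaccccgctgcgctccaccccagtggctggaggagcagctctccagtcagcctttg
SPRED2: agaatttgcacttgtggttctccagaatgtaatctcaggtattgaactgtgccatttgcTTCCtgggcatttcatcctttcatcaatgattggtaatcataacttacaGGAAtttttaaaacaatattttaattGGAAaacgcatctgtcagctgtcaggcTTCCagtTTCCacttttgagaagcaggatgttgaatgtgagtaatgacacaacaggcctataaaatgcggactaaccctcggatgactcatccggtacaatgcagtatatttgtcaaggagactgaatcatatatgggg
The ETS core occurred 6 times in the DUSP6 window, 4 times in the SPRY4 window, 3 times in the SPRED1 window and 5 times in this SPRED2 window, against a median of 3 over all 35116 windows of the table. At least 6 cores were present in 16.1% of all windows, and at least 4 in 46.0%. Longer motifs were searched on both strands: the CIC octamer (TGAATGAA or TGAATGGA), the ETS site CCGGAAGT, which contains the core, the AP-1 site TGANTCA, the CRE TGACGTCA and the MYC E-box CACGTG. None of the listed spellings was found in the 10 windows except AP-1, which matched 2 times in the SPRED2 window shown. That window is at a start inside the annotated gene, and the DUSP6, SPRY4 and SPRED1 windows shown also lie inside the annotated spans of their genes. The listed spellings occur in 2.63%, 4.14%, 7.71%, 1.85% and 7.26% of all windows in the order named. Other spellings of the CIC octamer were not searched and are not counted in the 2.63%. Such a spelling is present in the DUSP6 window shown, which holds tccattga 2 times. Read on the other strand, these letters differ from the listed TGAATGGA only in the base after the opening T, which is C instead of G. The absence of the listed spellings therefore does not mean that the DUSP6 window lacks a CIC octamer. The share of all windows with this spelling was not counted, and other windows of the members may hold such spellings too. A match is a run of letters and not a measured site, and the starts used in these cells were not measured.

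In GENCODE 29 on GRCh38 all 10 members are protein-coding genes. DUSP6 spans chr12:89347232-89353271 (minus strand), SPRY4 chr5:142310427-142326455 (minus), DUSP5 chr10:110497838-110511544 (plus), SPRY2 chr13:80335976-80340951 (minus), SPRED2 chr2:65310851-65432637 (minus), ETV4 chr17:43527844-43579620 (minus) and ETV5 chr3:186046308-186110318 (minus). Counts are of whole genes, so exons and isoforms are not separated.

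The labelled conditions and cell types were checked first. S100A9 was at 0.225 ± 0.17 CPM (counts per 1000000 counts, mean ± SD, n = 3 per group throughout) in U937 shS100A9 and 6.14 ± 1.44 CPM in U937 empty vector, at 28.1 ± 1.57 CPM in THP-1 OES100A9 and 6.38 ± 2.79 CPM in THP-1 empty vector, and under Adavivint at 107 ± 5.15 CPM with OES100A9 and 13.9 ± 1.13 CPM with empty vector. Of 14 monocytic markers, 13 or 14 reached 1 CPM in each group, with summed levels between 2659 and 3142 CPM; erythroid, platelet and epithelial marker lists summed to at most 2.38 CPM in any library. Markers of 3 other lists moved with the drug: in the Adavivint groups against the untreated THP-1 groups, the 4 T and NK markers in the table summed to 36.4 to 43.9 CPM against 57.0 to 83.3 CPM, mostly NKG7, which fell, the 5 B cell markers to 12.7 to 15.6 CPM against 17.7 to 23.2 CPM, led by CD79A and PAX5, and the 7 fibroblast and endothelial markers to 82.9 to 92.2 CPM against 121 to 144 CPM, nearly all PECAM1. With either vector, 2 of the 3 T and NK markers tested were higher with the drug, CD8A and GNLY, and GNLY averaged 6.37 and 5.36 CPM in the Adavivint groups with OES100A9 and empty vector, against 0.101 and 0.0323 CPM untreated. Of the 4 B cell markers tested, 1 rose (CD79A) and 3 fell with the drug in OES100A9 cells, and 0 rose and 1 fell (PAX5) in empty vector cells. CD3G, MS4A1 and COL3A1, a gene each of these lists, averaged at most 0.0265 CPM in any THP-1 group. Other genes of the same lists were expressed: NKG7, PAX5 and PECAM1 averaged 75.0, 10.3 and 132 CPM in THP-1 empty vector cells. The part of these markers in the results was not tested. Totals were 56.8 to 82.0 M counts in shS100A9 and 41.9 to 49.5 M in U937 empty vector, and 38.4 to 45.3 M in the Adavivint groups against 49.7 to 84.4 M in the untreated THP-1 groups, so depth moved with both contrasts. In U937 cells, empty vector replicate 2 and shS100A9 replicate 3 stood apart from the other libraries, and results are given with and without them. In bulk RNA, fewer cells of a type and less RNA per cell cannot be told apart.

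At baseline the set was expressed in both lines, in a similar order. The mean log2 CPM profiles of the U937 and THP-1 empty vector groups correlated at r = 0.972 over 18670 genes, which are not independent replicates, and the identity of the lines was not tested. Levels of different genes are compared per kb of exon. In THP-1 empty vector cells SPRED2 was highest at 13.7 ± 0.863 CPM per kb, followed by DUSP6 (12.5 ± 1.64), SPRY2 (10.8 ± 1.26) and ETV5 (9.39 ± 1.68), and each of these overlapped its neighbour in the order. A step without overlap separated them from ETV4 (3.89 ± 1.09), DUSP5 (3.61 ± 0.439) and DUSP4 (3.07 ± 0.409 CPM per kb), which overlapped one another. SPRY4 (1.41 ± 0.308), SPRED1 (1.29 ± 0.0754) and SPRY1 (0.752 ± 0.0761 CPM per kb) were the lowest. U937 empty vector cells had the same 4 genes on top, SPRED2 at 12.9 ± 1.9 CPM per kb, and the same 3 at the bottom, with SPRY4 last at 0.666 ± 0.304 CPM per kb. Only 1 pair of neighbours in the U937 order, DUSP4 above SPRY1, did not overlap. Under Adavivint the order opened out: with OES100A9 SPRED2 (8.05 ± 0.101 CPM per kb) and ETV5 (4.93 ± 0.381) led, and DUSP6 came sixth at 0.699 ± 0.074 CPM per kb, overlapping DUSP5 and SPRY4.

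**Figure D1:**
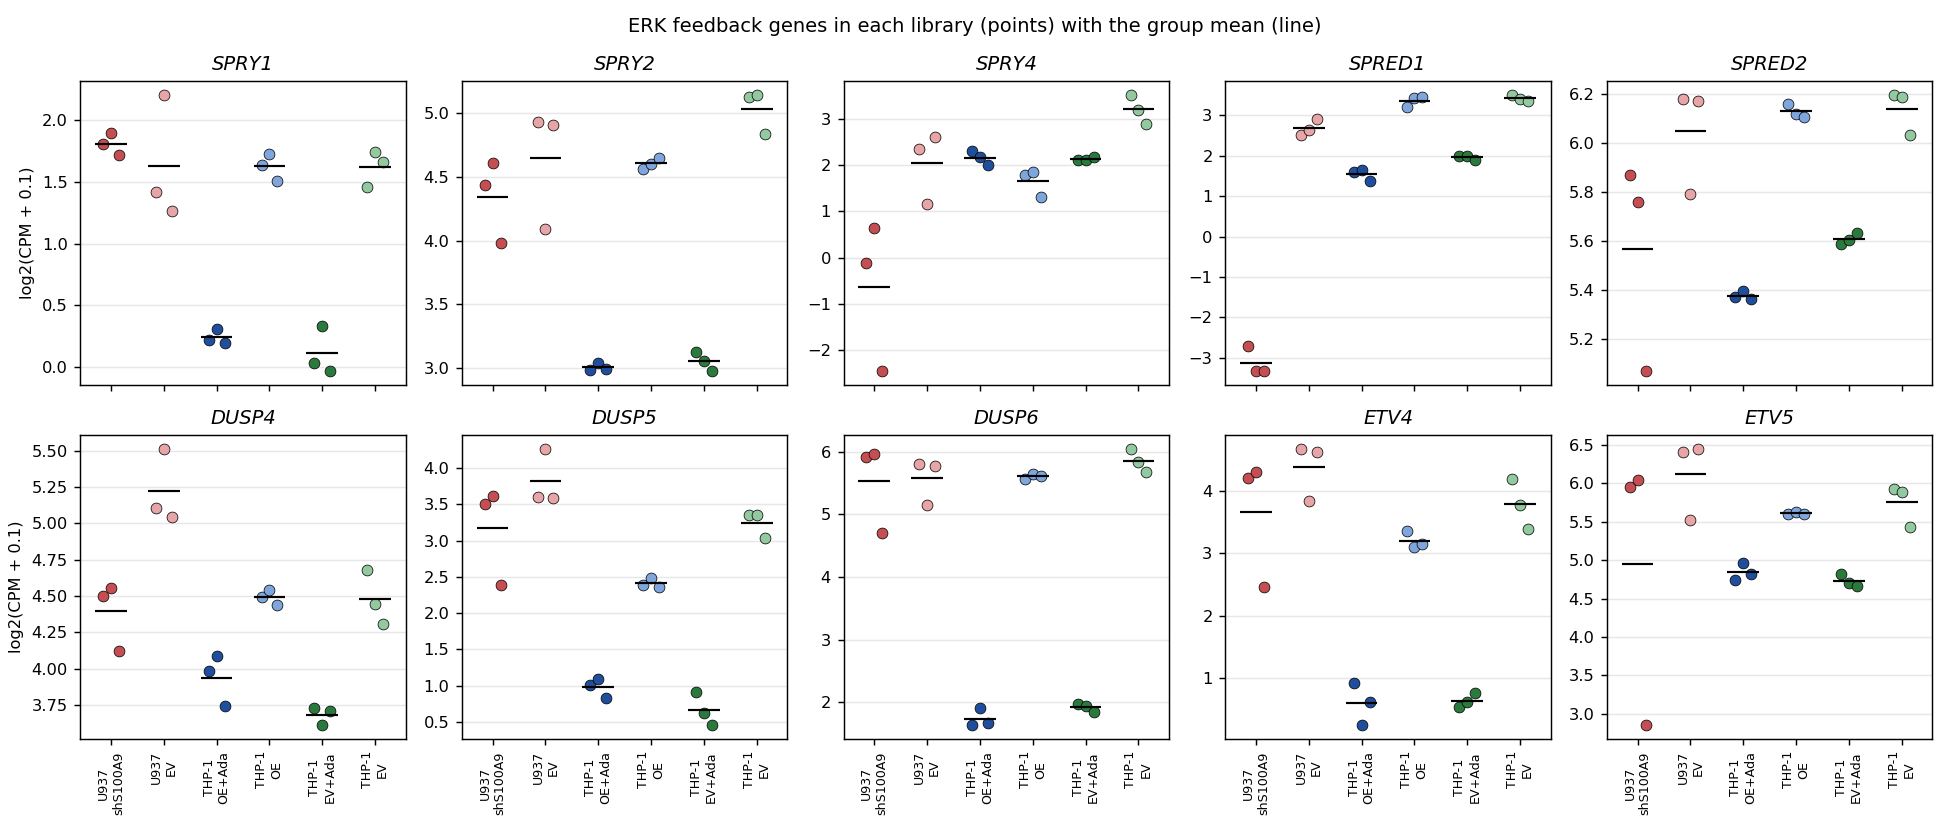
Expression of the 10 feedback genes as log2(CPM + 0.1), 1 panel per gene, with 1 point per library and a line at the mean of the 3 plotted values; EV is empty vector, OE is OES100A9 and Ada is Adavivint. The Adavivint groups lie below both untreated THP-1 groups for every gene but SPRY4, SPRED1 is at the floor of the axis in U937 shS100A9, and each panel has its own scale.

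Of the 10 members, 2 differed between the untreated lines, U937 empty vector over THP-1 empty vector. The nuclear phosphatase gene DUSP4 had 34.3, 45.5 and 32.8 CPM in U937 cells, against 25.6, 21.6 and 19.7 CPM in THP-1 cells. The groups did not overlap, and DUSP4 was higher in U937 (log2 fold change 0.74, SE 0.15, adjusted p = 0.0124, edgeR quasi-likelihood test with Benjamini-Hochberg adjustment). SPRED1 had 5.62, 6.12 and 7.43 CPM in U937 cells, against 11.3, 10.5 and 10.1 CPM in THP-1 cells, and was lower in U937 (-0.74, SE 0.14, edgeR adjusted p = 0.00927). The other 8 members did not pass, while 26.2% of the 13695 genes tested differed between the lines (11.4% higher and 14.8% lower in U937), so 2 of 10 is near that background. The DUSP4 call was lost without THP-1 empty vector replicate 2 (adjusted p = 0.0586) or replicate 3 (adjusted p = 0.0572), and without U937 empty vector replicate 2 SPRY4 (-0.77), ETV4 (0.81) and ETV5 (0.64) passed as well (edgeR adjusted p between 0.00655 and 0.0163). Line and any batch of the line cannot be told apart.

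Adavivint lowered the whole set in THP-1 empty vector cells, most of all the ERK phosphatase gene DUSP6. DUSP6 had 3.80, 3.72 and 3.50 CPM with the drug, against 65.9, 57.2 and 50.8 CPM untreated. The drug-treated libraries were tightly grouped and far below every untreated one. The difference was 15.8-fold (log2 fold change -3.98, SE 0.10, edgeR adjusted p = 3.06e-13), which placed DUSP6 145th from the lowest of 15403 fold changes. The transcription factor gene ETV4 had 1.35, 1.42 and 1.58 CPM with the drug, against 18.2, 13.5 and 10.4 CPM untreated, and was 9.62-fold lower (-3.27, SE 0.21, edgeR adjusted p = 2.85e-09). Its relative ETV5 kept a larger part of its RNA: 28.2, 25.8 and 25.1 CPM with the drug, against 60.8, 59.3 and 43.2 CPM untreated, a 2.07-fold fall (edgeR adjusted p = 4.67e-07). Whether counting used strand is unknown here, and reads of ETV4 could be shared with DHX8 on the opposite strand, and those of ETV5 with DGKG on the same strand, where the annotated genes overlap.

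The nuclear ERK phosphatase gene DUSP5 had 1.78, 1.45 and 1.28 CPM with the drug, against 10.1, 10.1 and 8.11 CPM untreated, and fell 6.29-fold (-2.65, SE 0.15, edgeR adjusted p = 7.85e-10). DUSP4, which acts on ERK and JNK, fell 1.75-fold to 12.8 ± 0.545 CPM, against 22.3 ± 2.97 CPM untreated. The 3 phosphatase genes thus covered nearly the whole range of the set. Among the Sprouty genes SPRY2 fell 3.99-fold (8.22 ± 0.428 CPM with the drug and 32.8 ± 3.83 CPM untreated), SPRY1 3.01-fold (0.988 ± 0.149 and 2.98 ± 0.302 CPM) and SPRY4 2.15-fold (4.29 ± 0.132 and 9.23 ± 2.02 CPM). SPRED1 fell 2.79-fold (3.80 ± 0.147 CPM with the drug and 10.6 ± 0.623 CPM untreated), and SPRED2 had the smallest change, 1.45-fold (48.7 ± 0.705 and 70.5 ± 4.45 CPM). All 10 members were called lower, and no drug-treated library overlapped an untreated one for any of them. The drug also lowered 41.1% and raised 44.2% of all genes tested, 85.3% in all, so a call alone says little here; the members' median log2 fold change was -1.54, beside 0.06 for all genes tested. Each of the 10 calls was kept in all 6 fits that left out 1 library, and with 1 spread estimated over all 18 libraries SPRY4 (adjusted p = 0.0598) and ETV5 (adjusted p = 0.0592) missed the threshold.

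In OES100A9 cells the drug lowered 9 members and raised SPRY4. DUSP6 had 3.01, 3.63 and 3.07 CPM with the drug, against 47.1, 49.9 and 48.9 CPM untreated, a 15.0-fold fall (-3.91, SE 0.10, edgeR adjusted p = 4.06e-13). ETV4 fell 6.34-fold, SPRED1 3.65-fold, SPRY2 3.05-fold, DUSP5 2.79-fold and SPRY1 2.75-fold. ETV5 (1.71-fold), SPRED2 (1.68-fold) and DUSP4 (1.46-fold) again had the smaller falls. SPRY4 had 4.83, 4.39 and 3.89 CPM with the drug, against 3.37, 3.50 and 2.39 CPM untreated. The groups did not overlap, and SPRY4 was 1.41-fold higher with the drug (0.50, SE 0.18, edgeR adjusted p = 0.0185). In these cells 41.3% of genes tested were lower and 43.4% higher with the drug, 84.7% in all, and the members' median was -1.47, beside 0.04 for all genes. The rise of SPRY4 was lost without OES100A9 with Adavivint replicate 1 (0.42, adjusted p = 0.0689) or OES100A9 replicate 3 (0.34, adjusted p = 0.0889); with 1 spread estimated over all 18 libraries SPRY4 (adjusted p = 0.376) and ETV5 (adjusted p = 0.159) were not called.

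**Figure D2:**
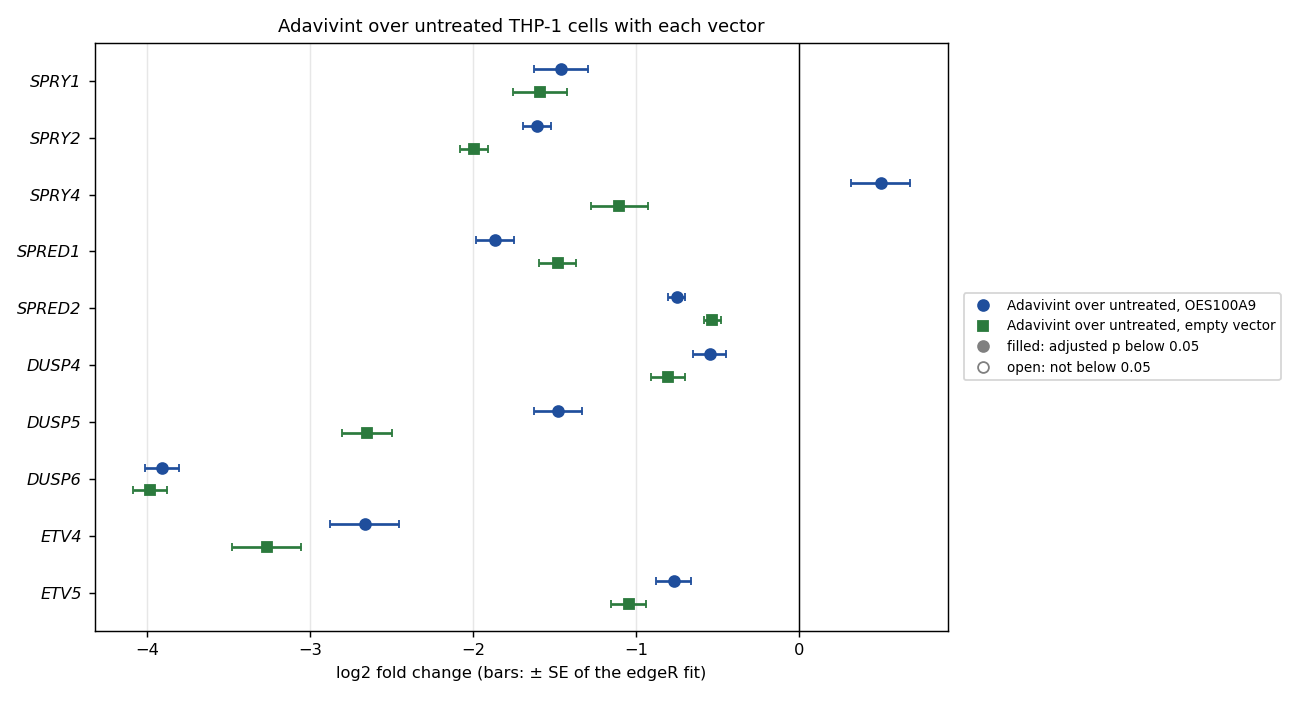
Log2 fold change of each member for Adavivint over untreated THP-1 cells, with OES100A9 (circles) and with empty vector (squares); bars are ± SE of the edgeR fit, and filled symbols have an adjusted p below 0.05. DUSP6 lies near -4 with either vector (-3.91 and -3.98), and SPRY4 lies at 0.50 with OES100A9 and at -1.11 with empty vector.

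Overexpression of S100A9 in untreated THP-1 cells lowered 5 of the 10 members, SPRY4 most. SPRY4 had 3.37, 3.50 and 2.39 CPM in OES100A9 cells, against 11.3, 9.04 and 7.32 CPM in empty vector cells. All OES100A9 libraries were below all empty vector libraries, and SPRY4 fell 2.99-fold (-1.58, SE 0.18, edgeR adjusted p = 8.53e-05). DUSP5 had 5.14, 5.50 and 5.04 CPM in OES100A9 cells, against 10.1, 10.1 and 8.11 CPM in empty vector cells, a 1.81-fold fall (-0.85, SE 0.14, edgeR adjusted p = 0.000913). SPRY2, another Sprouty gene, had 23.5, 24.2 and 24.99 CPM in OES100A9 cells and 34.8, 35.2 and 28.4 CPM in empty vector cells (-0.44, SE 0.08, edgeR adjusted p = 0.002). ETV4 fell 1.54-fold (9.12 ± 0.858 CPM in OES100A9 and 14.0 ± 3.92 CPM in empty vector cells, edgeR adjusted p = 0.0225) and DUSP6 1.19-fold (48.6 ± 1.41 and 58.0 ± 7.58 CPM, edgeR adjusted p = 0.0388).

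SPRY1, SPRED1, SPRED2 and DUSP4 had log2 fold changes between -0.05 and 0.01 for OES100A9 over empty vector, and ETV5 -0.16 (edgeR adjusted p between 0.284 and 0.996). This comparison shares its empty vector libraries with the drug comparison, in which the same 5 members had fallen between 1.45-fold and 3.01-fold. Of all 15403 genes tested, 13% were lower and 28% changed in either direction. SPRY4, DUSP5 and SPRY2 kept their calls in all 6 fits that left out 1 library, ETV4 in 3 and DUSP6 in 1: without empty vector replicate 1, the highest library for both, ETV4 was at -0.39 (adjusted p = 0.118) and DUSP6 at -0.15 (adjusted p = 0.165). DUSP6 was also lost without empty vector replicate 2 or any OES100A9 replicate (adjusted p up to 0.107), ETV4 without OES100A9 replicate 2 or 3 (adjusted p up to 0.0822), ETV5 passed without empty vector replicate 3 (-0.30, adjusted p = 0.00619), and no member passed with 1 spread over all 18 libraries (adjusted p for the 5 between 0.0773 and 0.517).

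Under Adavivint the SPRY4 and DUSP5 levels of the vectors lay side by side. SPRY4 was at 4.37 ± 0.47 CPM with OES100A9 and 4.29 ± 0.132 CPM with empty vector, both under the drug, and DUSP5 at 1.88 ± 0.175 and 1.5 ± 0.257 CPM; neither difference passed (edgeR adjusted p = 0.96 and 0.246). The SPRED genes, which had not passed in untreated cells, were lower with OES100A9. SPRED1 had 2.93, 3.04 and 2.48 CPM with OES100A9, against 3.87, 3.90 and 3.63 CPM with empty vector (-0.43, SE 0.12, edgeR adjusted p = 0.0373). SPRED2 had 41.3, 42.1 and 41.1 CPM with OES100A9, against 48.1, 48.6 and 49.5 CPM with empty vector (-0.23, SE 0.05, edgeR adjusted p = 0.0163). The libraries of both genes were fully separate, and of all genes tested 4.8% were lower, 3.69% higher and 8.5% changed in this comparison. DUSP4 was separate in the other direction and did not pass. It had 15.7, 16.9 and 13.3 CPM with OES100A9, against 13.2, 12.2 and 13.0 CPM with empty vector. The median log2 fold change of the 10 members was 0.001. Scaling by library totals instead of TMM left SPRED1 and SPRED2 lower and moved the share of higher genes among all calls to 20.2%, against 43.5% with TMM. No single-library omission kept the SPRED1 call (adjusted p 0.051 to 0.139), SPRED2 was lost without OES100A9 with Adavivint replicate 1 or 3 or empty vector with Adavivint replicate 2 (adjusted p up to 0.0608), and SPRED1 was also lost with the 6 drug-treated libraries alone (adjusted p = 0.0688) and without a filter on low counts (adjusted p = 0.0508).

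**Figure D3:**
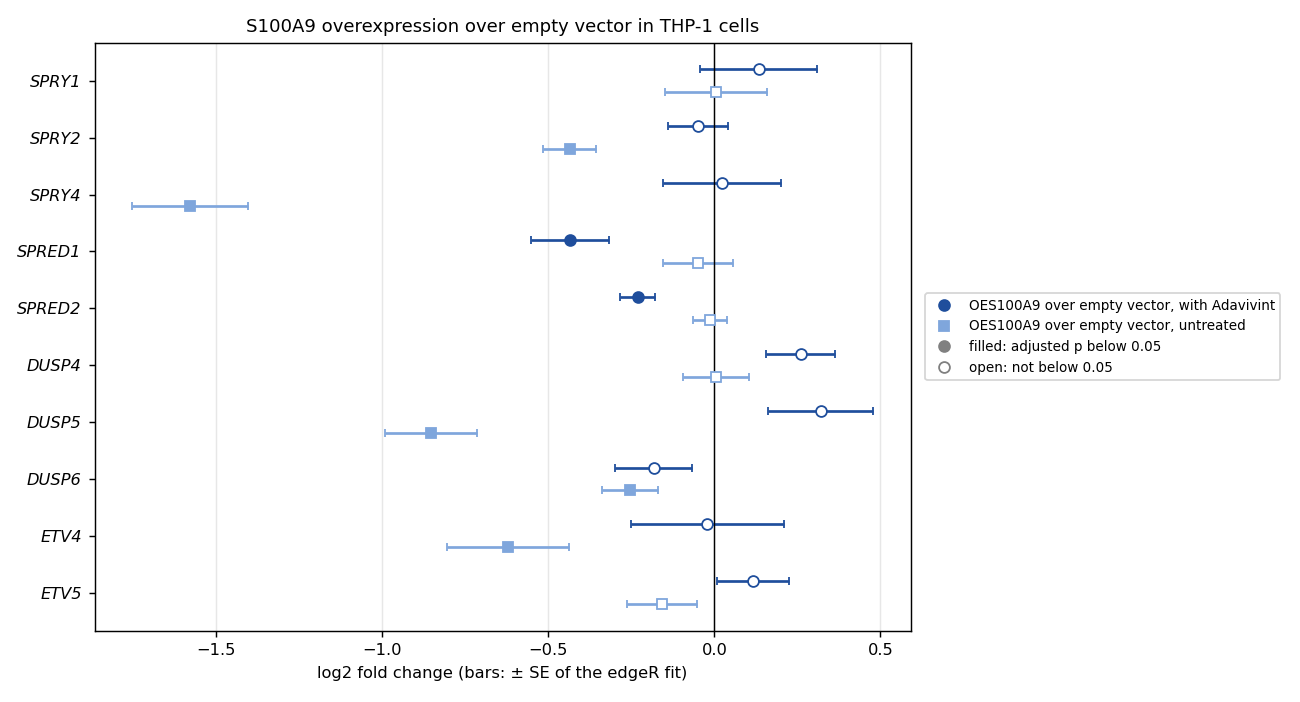
Log2 fold change of each member for OES100A9 over empty vector in THP-1 cells, with Adavivint (circles) and untreated (squares); bars are ± SE of the edgeR fit, and filled symbols have an adjusted p below 0.05. SPRY4 and DUSP5 lie at -1.58 and -0.85 in untreated cells and at 0.02 and 0.32 with the drug.

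The difference between the drug effects, OES100A9 minus empty vector, was tested as the interaction of vector and drug. By construction it also equals the OES100A9 effect with Adavivint minus the OES100A9 effect in untreated cells, from the same libraries. It was 1.60 for SPRY4 (SE 0.25, edgeR adjusted p = 0.0015) and 1.17 for DUSP5 (SE 0.21, edgeR adjusted p = 0.0031), and both passed in each of the 12 fits with a library omitted. For SPRY4 this was a change of direction, 0.50 with OES100A9 against -1.11 with empty vector; for DUSP5 it was a smaller fall, -1.48 with OES100A9 against -2.65 with empty vector. SPRY2 (0.39, edgeR adjusted p = 0.0389) also fell less with OES100A9, and SPRED2 (-0.22, edgeR adjusted p = 0.0492) fell more. For DUSP6 the difference was 0.07 with an SE of 0.14 (edgeR adjusted p = 0.771), with drug effects of -3.91 with OES100A9 and -3.98 with empty vector. In this test 8.04% of genes were called higher and 11.2% lower. Scaling by library totals moved the higher share of all calls to 28.8%, against 41.7%, and gave SPRY2 an adjusted p of 0.0543; SPRY2 kept its call in 2 and SPRED2 in 1 of 12 omissions, SPRED2 was lost with DESeq2 size factors (adjusted p = 0.0648), and none of the 4 was called with 1 spread over all 18 libraries.

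In U937 cells the knockdown of S100A9 went with a near absence of SPRED1 RNA. SPRED1 had 0.0537, 0 and 0 CPM in shS100A9 cells, against 5.62, 6.12 and 7.43 CPM in empty vector cells. The 3 shS100A9 libraries held 3 SPRED1 counts together and the 3 empty vector libraries 904. The ratio of the levels was 439-fold, with an exact 95% interval from 149.6 to 2131 that covers counting error only, and SPRED1 was called lower (log2 fold change -8.54, SE 0.75, edgeR adjusted p = 0.00737) in the full data and in all 6 fits that left out 1 library. It was the only member called with all 6 libraries, where 1.54% of 13016 genes tested were lower, 0.23% were higher and 1.77% changed. Its fold change was 4th from the lowest of these genes, so near loss was not particular to SPRED1. The 3 genes nearest to it by pattern, and so chosen for a like shape, were SNRPN, METTL7B and CD109. They averaged 0.107, 0.0503 and 0.364 CPM in shS100A9 cells, against 20.1, 3.53 and 20.0 CPM in empty vector cells. SPRED1 lies on chromosome 15 from 38252326 to 38357249 (plus strand, GENCODE 29 on GRCh38). The other genes tested within 1 Mb, selected after their values had been seen, were FAM98B at 90.8 ± 10.8 CPM in shS100A9 and 109.6 ± 12.6 CPM in empty vector cells (edgeR adjusted p = 0.425) and RASGRP1 at 0.497 ± 0.151 and 0.612 ± 0.144 CPM (adjusted p = 0.782).

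SPRY4 and DUSP4 were separate between the U937 groups without passing the test. SPRY4 had 0.823, 1.45 and 0.0833 CPM in shS100A9 cells, against 5.01, 2.14 and 5.98 CPM in empty vector cells (-2.49, SE 0.87, edgeR adjusted p = 0.264). DUSP4 had 22.6, 23.5 and 17.3 CPM in shS100A9 cells, against 34.3, 45.5 and 32.8 CPM in empty vector cells (-0.83, SE 0.18, edgeR adjusted p = 0.0892). DESeq2 called both (adjusted p = 0.0321 for SPRY4 and 0.00165 for DUSP4). The remaining 7 members overlapped between the groups. For SPRY2, SPRED2, DUSP6, ETV4 and ETV5, and also for SPRY4, the lowest value of each group was in a library that stood apart. DUSP6 was at 26.0 CPM in shS100A9 replicate 3, beside 60.1 and 62.2 CPM in replicates 1 and 2. It was at 35.5 CPM in empty vector replicate 2, beside 55.8 and 54.7 CPM in the other replicates. In shS100A9 replicate 3 ETV5 was at 7.13 CPM, beside 62.0 and 65.8 CPM in replicates 1 and 2, and ETV4 at 5.38 CPM, beside 18.3 and 19.6 CPM. In empty vector replicate 2 ETV5 was at 45.8 CPM, beside 85.0 and 87.4 CPM, while SPRY1, DUSP4 and DUSP5 were at their highest of that group.

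Without both of these libraries, 7 members were lower in shS100A9 cells, where 17.7% of 13055 genes tested were lower and 32.9% changed. SPRY4 was at -2.26 and SPRED1 remained called. DUSP4 (-0.54), ETV5 (-0.43), SPRY2 (-0.39), ETV4 (-0.39) and SPRED2 (-0.36) passed with edgeR adjusted p values between 0.000757 and 0.00633. DUSP6 (0.15, adjusted p = 0.0618), SPRY1 (0.53, adjusted p = 0.063) and DUSP5 (-0.03, adjusted p = 0.807) did not pass. These 4-library values rest on 2 libraries a group. The libraries left out were picked from these same counts, and leaving them out narrows the spread. The p-values take no account of that choice.

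**Figure D4:**
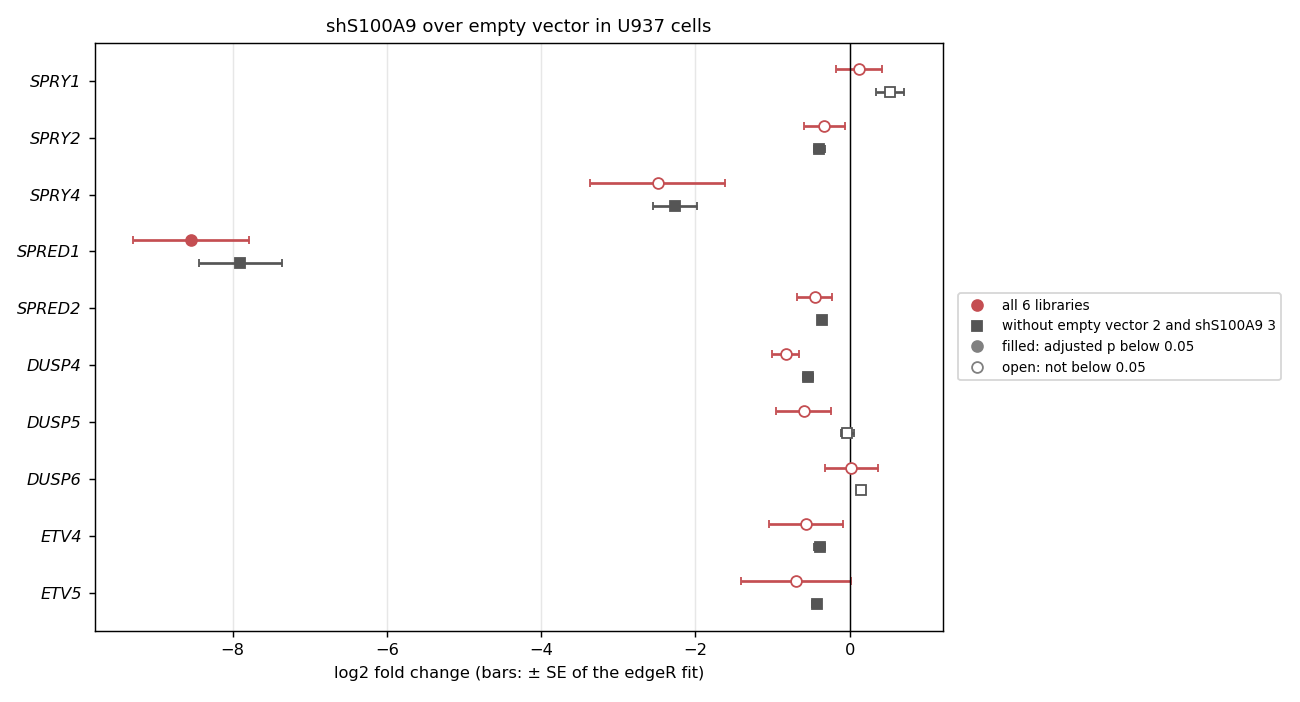
Log2 fold change of each member for shS100A9 over empty vector in U937 cells, with all 6 libraries (circles) and without empty vector replicate 2 and shS100A9 replicate 3 (squares); bars are ± SE of the edgeR fit, and filled symbols have an adjusted p below 0.05. SPRED1 lies far to the left in both fits (-8.54 with all libraries), and the bars of the other members are shorter in the fit of 4 libraries.

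The other genes of the pathway were read out by role, beside 44.2% of all genes tested that were higher with Adavivint in empty vector cells and 41.1% that were lower (43.4% and 41.3% in OES100A9 cells). Of 27 genes of the RAS-ERK core, Adavivint raised 15 and lowered 8 in empty vector cells, among them the kinase gene BRAF (221 ± 6.14 CPM with the drug and 60.3 ± 1.43 CPM untreated), which rose, and the RAS exchange factor gene RASGRP2 (16.4 ± 1.62 and 86.7 ± 9.81 CPM), which fell. In OES100A9 cells the drug also raised 15 and lowered 8 of the 27. Of 22 tested RAS GAPs and other brakes, 8 rose and 12 fell in empty vector cells. SPRED3, the third SPRED gene, rose 11.9-fold (14.2 ± 0.964 CPM with the drug and 1.19 ± 0.0554 CPM untreated), and the RAS GAP gene RASA3 fell 5.64-fold (25.9 ± 1.54 and 146 ± 6.3 CPM). Of 9 other MAPK phosphatases, 5 rose, with DUSP16, whose product acts on JNK and p38, 4.11-fold higher, and 4 fell, with DUSP2 6.44-fold lower.

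The downstream genes are read against the same shares of 44.2% higher and 41.1% lower. Of 19 ERK substrates and transcription factors, 7 rose and 10 fell with Adavivint in empty vector cells; the ETS repressor gene ETV3 rose 5.37-fold (278 ± 24.1 CPM with the drug and 51.8 ± 1.71 CPM untreated) and the serum response factor gene SRF fell 1.91-fold. Of 23 other ERK-induced targets, 9 rose and 9 fell, MYC by 20.7-fold (16.8 ± 1.72 and 348 ± 21.3 CPM) and FOS by 2.97-fold, while PLAUR rose 2.3-fold. The list's median log2 fold change was 0.02, beside -1.54 for the feedback genes and 0.06 for all genes tested. Of 20 growth factor receptors, 9 rose and 7 fell; FLT3, a receptor of myeloid progenitors, fell 6.99-fold (3.78 ± 0.396 and 26.4 ± 2.18 CPM), and ERBB3 was at 33.5 ± 4.41 CPM with the drug and 0.0864 ± 0.0284 CPM untreated.

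With OES100A9 in untreated THP-1 cells, 6 genes of the core rose and 4 fell, 5 brakes rose and 2 fell, 1 of the other phosphatases rose and 3 fell, and 2 substrates and factors rose and 5 fell, beside 14.9% of all genes tested that were higher and 13% that were lower. NF1, the partner of the SPRED proteins, rose 1.25-fold (90.3 ± 2.54 CPM in OES100A9 and 72.3 ± 1.67 CPM in empty vector cells), and the substrate kinase gene RPS6KA2 rose 1.73-fold. Of the 23 other ERK-induced targets, 2 rose, with FOS 1.40-fold higher, and 4 fell, with the AP-1 gene FOSL1 2.46-fold lower (2.27 ± 0.0995 and 5.58 ± 1.83 CPM). FOSL1 had an interaction of 1.65 (edgeR adjusted p = 0.0074), beside 1.60 for SPRY4 and 1.17 for DUSP5. Of 20 receptors 6 rose, with FLT3 1.54-fold and CSF2RA 1.37-fold higher, and 0 fell with edgeR (2 at an unadjusted p below 0.05, 1 with DESeq2). Under the drug NF1 was lower with OES100A9 (62.3 ± 2.87 CPM with OES100A9 and 79.7 ± 0.925 CPM with empty vector, edgeR adjusted p = 0.00114). SPRED1 and SPRED2 were lower there too, but no single-library omission kept the SPRED1 call and some lost the SPRED2 call. With edgeR 7 of the 22 brakes fell while 0 rose (0 at an unadjusted p below 0.05, 0 with DESeq2), beside 4.8% of all genes that were lower and 3.69% higher. Leaving out 1 library gave 502 to 1174 genes called in this comparison, against 1309. In U937 cells with the knockdown, the core, brakes, other phosphatases and substrates had 0 edgeR calls among 27, 22, 6 and 18 genes tested (0, 1, 1 and 3 at an unadjusted p below 0.05, and 0, 0, 0 and 1 with DESeq2). EMP1 fell 6.41-fold among the targets (0.389 ± 0.113 CPM in shS100A9 and 2.49 ± 0.721 CPM in empty vector cells), and the receptor genes FLT1 (0.0781 ± 0.0147 and 1.64 ± 0.246 CPM) and CSF2RA (17.2 ± 0.805 and 26.2 ± 0.869 CPM) fell. With each library left out in turn, EMP1 kept its call in 2 fits, CSF2RA in 1 and FLT1 in all 6.

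The shape of each member's levels over the 6 groups was compared by the root mean square difference of centred log2 group means. DUSP4 and ETV5 were nearest to each other (0.223 log2 units), and SPRY1 and SPRY2 were nearest to each other at 0.267. SPRED2 was nearest to ETV5 (0.291), DUSP5 to ETV4 (0.402) and DUSP6 to ETV4 (0.481). SPRY4 and SPRED1 had no near member: SPRY4 lay 1.09 log2 units from SPRED2, and SPRED1 lay 1.28 from SPRY4. Over the whole table the nearest gene to DUSP6 was DNAJC25-GNG10 (0.0974), a readthrough locus whose counts may be shared with its parts, followed by VARS1 (0.1) and TNFAIP8L2 (0.117). The nearest to ETV4 was ODC1 (0.121), to ETV5 GNG12 (0.137), to SPRY2 CDC6 (0.0425) and to SPRED2 CHST14 (0.0395). TLR4 (0.0374) and RCCD1 (0.0426) were near SPRY1, and CMC4 (0.103) and ECHDC1 (0.121) near DUSP4. SIGLEC12 (0.176) and HYOU1 (0.188) were nearest to DUSP5, while SLC37A3 (0.494) and RGS1 (0.503) were near SPRY4 and SNRPN (0.509), METTL7B (0.513) and CD109 (0.624) near SPRED1. These distances describe 6 group means and carry no test.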

How the data were processed

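The table deposited by the authors holds raw counts, whole numbers without normalization, of reads per Ensembl gene in each of the 18 libraries. HISAT2 2.0.4 is named in the submitters' processing notes; for the counter, genome build, annotation and strand setting, none is given in the sources used here. Gene symbols were matched for 18642 of 18670 genes, and positions come from GENCODE 29 on GRCh38 (18482 matched). Totals ran from 38.4 to 84.4 M counts per library (M is 1000000); intervals and floors cover counting error only.

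CPM values use library sizes scaled by TMM within each line, and values per kb use the exon-union length. Tests were quasi-likelihood F tests (edgeR 4.0.16, R 4.3.3) with filterByExpr, Benjamini-Hochberg adjustment over all genes tested and a threshold of 0.05. The 6 U937 libraries were fitted together (13016 genes), the 12 THP-1 libraries together (15403 genes) and the 6 untreated empty vector libraries together (13695 genes). SE is the log2 fold change over the square root of F. The scripts were tested on simulated data. Alternatives were DESeq2 1.42.0, other scalings and filters, leaving out each library, the replicate number as a block, fits of all 18 libraries or of 6, and leaving out the 2 U937 libraries that stood apart.

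The members and lists were chosen with earlier results of these data known. All members were tested in every comparison. Between the lines, for OES100A9 under Adavivint and for the interaction, members not called are named only in part. S100A9 is named once, with the nearest genes by pattern. Of each pathway list, at most 2 genes per direction are named by smallest p among those that passed. The neighbours of SPRED1 were added after their values were seen. Replicates are not labelled as separate cultures; the p-values therefore reflect a spread that may be technical. No pair of replicates agreed within sampling noise, so each library was counted once. PTPN5, RPS6KA6 and a few markers were not analysed here. Some genes that the naming rule selects are not reported here.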

Additional observations from a re-analysis of the deposited data

Results flagged for a closer look

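The drug effect differed between the vectors for 4 members, by the interaction test in edgeR, each given as the effect with OES100A9 minus the effect with empty vector in log2 units. The difference was 1.60 for SPRY4 (0.50 with OES100A9 and -1.11 with empty vector), 1.17 for DUSP5 (-1.48 and -2.65), 0.39 for SPRY2 (-1.61 and -2.0) and -0.22 for SPRED2 (-0.75 and -0.53). For SPRY4 all 3 drug-treated OES100A9 libraries were above the untreated OES100A9 libraries, and all 3 drug-treated empty vector libraries were below the untreated empty vector libraries. The differences for SPRY2 and SPRED2 had adjusted p values of 0.0389 and 0.0492 and kept their calls in 2 and 1 of 12 fits with a library omitted. Of all 15403 genes tested, 19.3% passed this test, so 4 of 10 members is read against that share; 2 members passed without a filter on low counts and 0 with 1 spread over all 18 libraries. Each difference also equals, by construction, the OES100A9 effect with Adavivint minus that in untreated cells, and is no separate observation. The cause of these differences was not tested.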

How the results depend on the processing

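Of 1020 member fold changes recomputed under the alternatives, 903 kept direction and side of the threshold, 68 lost the call, 18 gained it and 31 changed sign. In U937 knockdown cells 231 genes changed, against 3 with the replicate block, 879 with DESeq2, 1932 in the fit of all 18 libraries and 4296 without the 2 libraries that stood apart; members changed numbered 1, against 0, 3, 3 and 7. With all 18 libraries in 1 fit, genes changed by OES100A9 fell to 468 untreated and 112 with Adavivint, against 4307 and 1309, and interactions to 152, against 2968; no member passed in these 3 tests. DESeq2 called 2026 genes for OES100A9 under Adavivint, and 4 members between the lines, against 2. For OES100A9 under Adavivint 1 member passed without a filter, with the replicate block or with only the 6 libraries, against 2; for the interaction 2 passed without a filter or with the replicate block, against 4.

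Leaving out 1 library gave 18 to 362 genes and 1 to 1 member for the U937 knockdown, 2735 to 4983 genes and 3 to 6 members for OES100A9, and 12841 to 13103 genes and 10 to 10 members for the drug with empty vector. It gave 12778 to 12910 genes and 9 to 10 members for the drug with OES100A9, 502 to 1174 and 0 to 1 for OES100A9 under the drug, 1885 to 3724 and 2 to 5 for the interaction, and 2122 to 6111 and 1 to 5 between the lines.

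In the alternatives run, sign changes were confined to members not called. For OES100A9, SPRY1 and DUSP4 (0.0052 and 0.0055) were at -0.0053 and -0.0065 with DESeq2, -0.0073 and -0.0062 with its size factors, -0.014 and -0.013 with 6 libraries and -0.0095 and -0.0057 in the fit of 18. SPRY4 under Adavivint was at -0.033 with library totals, and DUSP6 in the knockdown at -0.048 with the replicate block. Leaving out 1 library gave, for the knockdown, -0.060 to 0.48 for SPRY1 and -0.18 to 0.33 for DUSP6. For OES100A9 it gave -0.074 to 0.068 for SPRY1, -0.090 to 0.027 for SPRED1, -0.064 to 0.016 for SPRED2 and -0.075 to 0.12 for DUSP4. Under Adavivint it gave -0.055 to 0.10 for SPRY4 and -0.20 to 0.14 for ETV4, for the interaction -0.032 to 0.16 for DUSP6, and between the lines -0.31 to 0.24 for SPRY1 and -0.16 to 0.015 for SPRED2.

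Replicate numbers did not pair the libraries: same-numbered libraries had deviations correlated between -0.11 and 0.07 in THP-1 cells, -0.34 and 0.09 in U937 cells and -0.12 and 0.20 between the empty vector groups of the lines, where 1 of 3 pairs was over 0.1. With the number as a block, SPRED1 in the knockdown was at -8.57 (edgeR adjusted p = 0.114). Causes of these moves were not tested. With 3 libraries a group, small differences of low members such as SPRY1 cannot be resolved.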
